A study of Rattus norvegicus with 6 samples.

Results

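Glycosaminoglycans are the long sulfated sugar chains of proteoglycans, and the genes described here are the enzymes and transporters that build and sulfate chondroitin, dermatan, keratan and heparan sulfate. They were chosen by gene name from a list of 43 names, and each name was found in 1 row of the table, which makes 43 of 30562 genes. In 42 of them the counts were high enough for a test. The genes were read in 8 role groups, from the linker sugars on the core protein to the supply of sulfate and nucleotide sugars.

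Bulk RNA of intervertebral discs was sequenced in 6 libraries, 3 in each of 2 groups, to ask how transcription in an injured disc differs after a nanovesicle treatment. The control group, named PBS here, came from male Sprague-Dawley rats of 12 weeks whose tail discs had been punctured with a needle and injected with saline, while the sample labels call these animals wild type and untreated. The other group came from the same kind of rats and injury and carries the label AF-PTK@LEV@SPP1, a liposome fused with vesicles of bacterial outer membrane that bears a peptide binding the annulus fibrosus (AF) on a linker cut by reactive oxygen species and holds an siRNA that the methods describe as directed at mouse Spp1. It is called AFPTK-labelled here, because the target of the siRNA was not lower in it. The methods give a first injection at 24 h, 10 μL with 1 mg/kg of siRNA and a course of 8 weeks, whereas the labels give 14 days. The labels also describe a sort for macrophages, while the methods describe whole disc tissue. In these libraries collagen genes of cartilage and annulus were abundant. The chondrocyte list, led by Col2a1, summed to 21914, 27982 and 27772 CPM (counts per 1000000 counts of a library) in the PBS libraries and to 32513, 25656 and 36964 in the AFPTK-labelled ones. The annulus and tendon list, led by Col1a1, summed to 34256, 51075 and 51431 CPM in PBS and 65672, 46976 and 52601 in the other group. The macrophage list summed to 1058, 658 and 656 CPM in PBS and 385, 634 and 483 in the other group.

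Total counts were 17942989, 16565291 and 17489851 in PBS and 17074981, 15560728 and 17855184 in the AFPTK-labelled libraries. Values are given as CPM, scaled with the trimmed mean of M values, and 3 counts in a library correspond to 0.154 to 0.193 CPM. PBS replicates 2 and 3 differed by little more than counting noise. The variance of their count differences was 1.33 times the counting noise, against 51.3 to 107 times for the other pairs within a group, and 16 of 14393 genes differed between them. They were therefore counted as 1 sample, so that PBS had n = 2 distinct samples and the other group n = 3. Spp1, the gene the siRNA is directed against, stood at 8122, 4411 and 4417 CPM across the PBS replicates and 8054, 6903 and 8461 across the AFPTK-labelled ones. Its level was thus not lower under the treatment label (log2 fold change 0.31, SE 0.366, edgeR adjusted p = 0.628), and every direction below is relative to that label.

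In a cell that makes proteoglycans, a xylose, a pair of galactoses and a glucuronic acid are first placed on a serine of the core protein. Adding N-acetylgalactosamine next commits the chain to chondroitin or dermatan sulfate, and adding N-acetylglucosamine commits it to heparan sulfate, while keratan sulfate grows on other sugar stems. Sulfotransferases then decorate the chains, and the chondroitin sulfate chains of aggrecan hold water that lets a disc bear load.

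Across all roles, more of these genes had estimates below than above PBS in the AFPTK-labelled libraries. Of the 42 tested genes, 3 were lower at an adjusted p under 0.05 (B4galt1, Ext1 and Ugdh), or 7.14% against 2.57% of all 15537 tested genes. 1 was higher (B4galt4), or 2.38% against 1.13% of all tested genes. When the 6 libraries were each counted as a sample, 8 were lower (19.05%, against 9.93% of the 15042 genes then tested) and 5 were higher (11.9%, against 8.20%). On distinct samples, DESeq2 called 5 higher (11.9%, against 7.29% of all tested genes) and 8 lower (19.05%, against 9.27%), and limma-voom 0 higher (against 0.895%) and 2 lower (4.76%, against 2.03%). In data simulated for this design each tool made more false calls than the threshold allows, DESeq2 by far the most, which holds for all its counts below. At an unadjusted p under 0.05, edgeR had 5 higher (11.9%, against 12.4%) and 11 lower (26.2%, against 13.0%). The 3 AFPTK-labelled values lay below all 3 PBS values for 17 of the 42 genes (40.5%, against 20.1% of all tested genes) and above them for 6 (14.3%, against 21.8%). The median log2 fold change was -0.29, with 0.05 over all tested genes, and single genes ranged from -1.79 (Chsy1) to 1.89 (Hs3st1). Among these, 27 estimates were below 0 and 15 above, while over all tested genes 7117 were below 0 and 8420 above. Together the 43 genes took 0.248%, 0.273% and 0.275% of the counts in PBS and 0.273%, 0.213% and 0.2503% in the AFPTK-labelled libraries, so their summed share overlapped between the groups. In bulk tissue, fewer cells of a type and less RNA per cell cannot be told apart.

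The calls rest on few samples. Without AFPTK-labelled replicate 2 or 3, 0 of the 42 genes, and 0 of all genes, passed edgeR's test. In these fits 13 and 12 of the 42 had an unadjusted p under 0.05, against 3109 of 15208 and 2699 of 15228 genes tested. Without AFPTK-labelled replicate 1 only Ext1 passed, and without PBS replicate 1 only B4galt1 and Chsy1. Genes called in either fit are therefore given with their value in every library and with the adjusted p from the 5 distinct samples and from the 6 libraries. The latter fit counts the near-identical PBS pair as separate samples and so understates the spread in PBS.

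**Figure D1:**
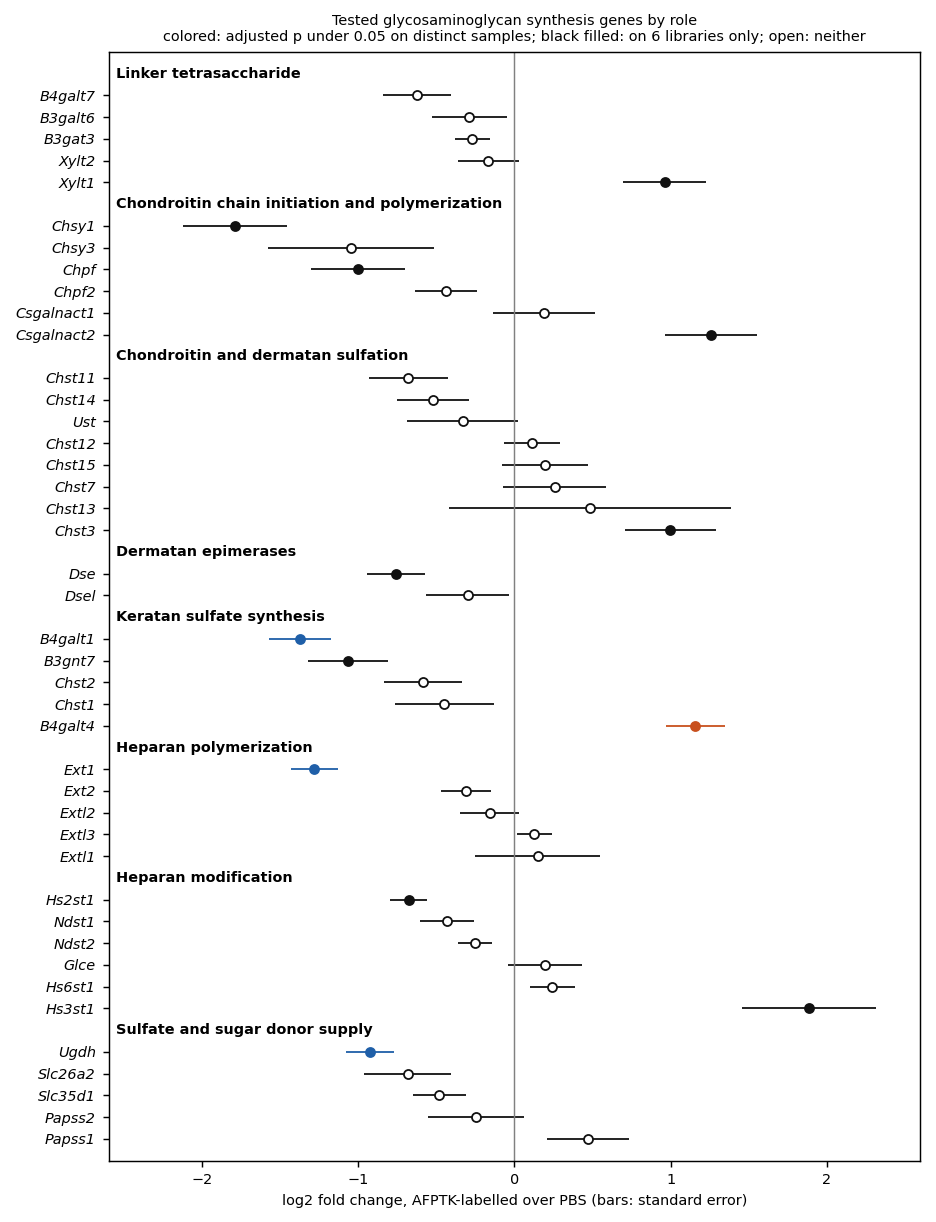
Log2 fold change of each of the 42 tested genes (horizontal axis, AFPTK-labelled over PBS), sorted within 8 role groups, with bars of 1 standard error. Colored points passed at an adjusted p under 0.05 on the 5 distinct samples (orange higher, blue lower), black filled points only with the 6 libraries counted separately, and open points in neither. B4galt1, Ext1 and Ugdh lie to the left and B4galt4 to the right, and within most role groups points lie on both sides of 0.

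The linker group begins with the xylosyltransferases. Xylt1, which places the first xylose on the core protein, stood at 146, 166 and 169.6 CPM in PBS replicates 1, 2 and 3 and 391, 225 and 308 CPM in AFPTK-labelled replicates 1, 2 and 3. All 3 AFPTK-labelled libraries lay above all PBS libraries, and AFPTK-labelled replicate 2 was the nearest to them. The log2 fold change of 0.96 (SE 0.266) did not pass on distinct samples (edgeR adjusted p = 0.111) and passed on the 6 libraries (adjusted p = 0.0302). Xylt2, the other enzyme for this step, stood at 33.2, 22.2 and 22.7 CPM in PBS and 23.05, 27.3 and 24.3 in the AFPTK-labelled libraries, which overlapped (log2 fold change -0.17, SE 0.197). For the enzymes that complete the linker, B4galt7 and B3galt6 (the galactoses) and B3gat3 (the glucuronic acid), the estimates were -0.62 (SE 0.219), -0.29 (SE 0.2402) and -0.27 (SE 0.112). B4galt7 and B3gat3 had all AFPTK-labelled values below all PBS values, by a margin of 14.9 against 16.2 CPM for B4galt7, and B3galt6 overlapped. B3gat3 shares its locus with Rom1 on the opposite strand. Of the 5 linker genes edgeR called 0 on distinct samples, with 1 higher (Xylt1) and 1 lower (B4galt7) at an unadjusted p under 0.05 (20% each, against 12.4% and 13.0% of all tested genes). DESeq2 called 1 higher (20%, against 7.29%) and limma-voom 0.

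In the group that starts and extends chondroitin chains, the initiating enzyme Csgalnact2 and the extending Chsy1 and Chpf lay on opposite sides of PBS. Csgalnact2, which adds the first N-acetylgalactosamine, stood at 99.8, 148 and 158 CPM in PBS replicates 1, 2 and 3 and 303, 234 and 377 CPM in AFPTK-labelled replicates 1, 2 and 3. The groups were fully apart, with the AFPTK-labelled libraries higher in 3 of 3. Its log2 fold change of 1.26 (SE 0.297) had an edgeR adjusted p of 0.0846 on distinct samples and 0.0252 on the 6 libraries. Csgalnact1, its partner in the same step, overlapped between groups, at 83.3, 83.3 and 89.4 CPM in PBS and 141, 68.2 and 82.9 in the AFPTK-labelled libraries.

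Chsy1, a synthase that alternates glucuronic acid and N-acetylgalactosamine in the growing chain, stood at 131, 284 and 287 CPM in PBS replicates 1, 2 and 3 and 66.03, 58.3 and 57.8 CPM in AFPTK-labelled replicates 1, 2 and 3. The 3 AFPTK-labelled libraries lay close together and below all PBS libraries. PBS replicate 1 lay between them and the near-identical pair, so the spread within PBS was wide. Means were 208 ± 109.8 CPM in PBS (SD, n = 2 distinct samples) and 60.7 ± 4.61 in the AFPTK-labelled libraries (SD, n = 3). For this gene, the log2 fold change of -1.79 (SE 0.334), the lowest estimate among the 42 genes, missed the threshold on distinct samples (edgeR adjusted p = 0.0559) and passed on the 6 libraries (adjusted p = 0.0126). Over 15 other ways of fitting it passed in 5, with adjusted p from 4.43e-05 to 0.198. Chpf, the polymerizing factor that works with the synthases, stood at 62.7, 104 and 102 CPM in PBS replicates 1, 2 and 3 and 50.9, 30.5 and 43.5 CPM in AFPTK-labelled replicates 1, 2 and 3. Again all AFPTK-labelled values were below all PBS values, and PBS replicate 1 was the nearest of the PBS libraries to them. A log2 fold change of -1.001 (SE 0.301) had an edgeR adjusted p of 0.127 on distinct samples and 0.0367 on the 6 libraries. Chsy3, a further synthase, stood at 25.7, 78.7 and 85.2 CPM in PBS and 26.3, 18.04 and 34.6 in the AFPTK-labelled libraries. There PBS replicate 1 fell among the AFPTK-labelled values, and the log2 fold change of -1.05 (SE 0.5301) had an adjusted p of 0.28. Chpf2 overlapped as well, with an estimate of -0.44 (SE 0.199). Of the 6 genes of this group edgeR called 0 on distinct samples, with 1 higher and 2 lower at an unadjusted p under 0.05 (16.7% and 33.3%, against 12.4% and 13.0% of all tested genes). DESeq2 called 1 higher and 2 lower (16.7% and 33.3%, against 7.29% and 9.27%), and limma-voom 0.

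Chondroitin sulfate is sulfated mainly on carbon 4 or carbon 6 of N-acetylgalactosamine. Chst3, the main chondroitin 6-O-sulfotransferase, stood at 30.4, 47.3 and 41.3 CPM in PBS replicates 1, 2 and 3 and 92.3, 54.2 and 78.6 CPM in AFPTK-labelled replicates 1, 2 and 3. The groups did not overlap, although AFPTK-labelled replicate 2 and PBS replicate 2 were close. The log2 fold change of 0.998 (SE 0.291) had an edgeR adjusted p of 0.121 on distinct samples and 0.0477 on the 6 libraries. Chst11, the main 4-O-sulfotransferase, stood at 77.4, 54.9 and 54.6 CPM in PBS replicates 1, 2 and 3 and 50.7, 42.4 and 31.3 CPM in AFPTK-labelled replicates 1, 2 and 3. Here the AFPTK-labelled libraries were the lower ones in 3 of 3, with a log2 fold change of -0.68 (SE 0.253), and neither adjusted p passed (0.179 on distinct samples and 0.11 on the 6 libraries, edgeR). The other 4-O-sulfotransferases, Chst12 and Chst13, overlapped between groups. Chst13 varied widely within PBS, at 4.42, 0.257 and 0.855 CPM. Chst7, a second 6-O-sulfotransferase, Chst15, which adds a 6-O-sulfate beside an existing 4-O-sulfate, and Ust, which sulfates uronic acid, overlapped too, with estimates of 0.26 (SE 0.329), 0.20 (SE 0.277) and -0.33 (SE 0.356). Of the 8 genes of this group edgeR called 0 on distinct samples, with 1 higher (Chst3) and 1 lower (Chst11) at an unadjusted p under 0.05 (12.5% each, close to the 12.4% and 13.0% of all tested genes). DESeq2 called 1 higher (12.5%, against 7.29%) and limma-voom 0.

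Dermatan sulfate is made from chondroitin when an epimerase turns glucuronic into iduronic acid. Dse, one such epimerase, stood at 83.6, 108 and 111 CPM in PBS replicates 1, 2 and 3 and 65.6, 49.4 and 57.4 CPM in AFPTK-labelled replicates 1, 2 and 3. All AFPTK-labelled libraries were below all PBS libraries. Its log2 fold change of -0.76 (SE 0.184) had an edgeR adjusted p of 0.0882 on distinct samples and 0.0205 on the 6 libraries. Dsel, the second epimerase, overlapped, at 53.01, 83.4 and 82.1 CPM in PBS and 64.4, 42.8 and 59.3 in the AFPTK-labelled libraries. Chst14, which sulfates dermatan on carbon 4, stood at 10.2, 11.8 and 11.97 CPM in PBS and 9.58, 6.46 and 7.12 in the AFPTK-labelled libraries. Its groups were apart by a narrow margin, with a log2 fold change of -0.52 (SE 0.2298) and an edgeR adjusted p of 0.23.

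The 5 genes for keratan sulfate held 1 gene called lower (20%, against 2.57% of all tested genes) and 1 called higher (20%, against 1.13%), both galactosyltransferases. DESeq2 called 1 higher and 2 lower (20% and 40%, against 7.29% and 9.27%), and limma-voom 0 higher and 1 lower (20%, against 2.03%). B4galt1 (chromosome 5, 55935615 to 55982461, minus strand in the coordinates of the deposited table, which names no build) adds galactose in β1,4 linkage to many glycans, keratan sulfate and the N-glycans of glycoproteins among them. It stood at 68.5, 107 and 104 CPM in PBS replicates 1, 2 and 3 and 32.1, 34.5 and 34.8 CPM in AFPTK-labelled replicates 1, 2 and 3. The AFPTK-labelled libraries lay close together, with an SD of 1.45 CPM (n = 3), and the lowest PBS value, in replicate 1, was still well above them. B4galt1 fell by 1.37 on the log2 scale (SE 0.198, edgeR adjusted p = 0.0377 on distinct samples and 0.00624 on the 6 libraries), lower in 3 of 3 libraries. Spink4 lies on the opposite strand of its locus, with few counts. B4galt4 (chromosome 11, 61995814 to 62021671, minus strand) adds galactose to sulfated N-acetylglucosamine. It stood at 5.496, 6.11 and 6.11 CPM in PBS replicates 1, 2 and 3 and 12.99, 11.3 and 14.8 CPM in AFPTK-labelled replicates 1, 2 and 3. Every AFPTK-labelled value was above every PBS value, and the spread within each group was small beside the gap. For this gene, the log2 fold change was 1.16 (SE 0.1897, edgeR adjusted p = 0.0444 on distinct samples and 0.00734 on the 6 libraries). It was the 1 gene of the 42 that edgeR called higher on distinct samples.

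B3gnt7, which adds the N-acetylglucosamine that alternates with galactose, was read from few counts, 78, 64 and 73 in PBS and 37, 28 and 37 in the AFPTK-labelled libraries. As levels these were 4.01, 4.12 and 4.46 CPM in PBS and 2.18, 1.69 and 2.11 in the AFPTK-labelled libraries. The groups did not overlap, with the AFPTK-labelled ones lower. A log2 fold change of -1.07 (SE 0.256) had an edgeR adjusted p of 0.0872 on distinct samples and 0.02 on the 6 libraries. The sulfotransferases Chst1, which acts on galactose, and Chst2, which acts on N-acetylglucosamine, overlapped between groups, with estimates of -0.45 (SE 0.317) and -0.59 (SE 0.251). Summed over the 5 keratan sulfate genes, the level was 139, 177 and 168 CPM in PBS and 93.5, 84.8 and 91.4 in the AFPTK-labelled libraries. B4galt1 was the most abundant gene in that sum, which did not overlap between groups. The sums of the dermatan epimerases and of the heparan polymerization genes were also lower without overlap. The heparan polymerization sum includes the called Ext1, while 2 of the 5 genes of that group had estimates above 0. The sum of the linker genes was higher without overlap, at 301, 304 and 312 CPM in PBS and 512, 344 and 433 in the AFPTK-labelled libraries. Xylt1 was the most abundant gene in it, and 4 of the 5 linker genes had estimates below 0. The sums of the remaining role groups overlapped, namely chondroitin chain synthesis, chondroitin and dermatan sulfation, heparan modification and donor supply.

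**Figure D2:**
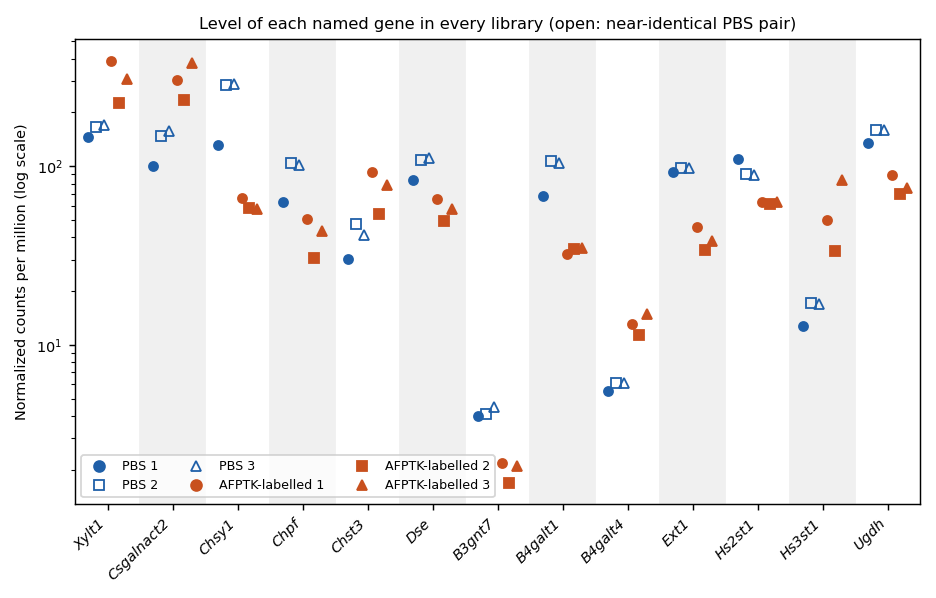
Level of 13 genes in every library, in normalized CPM on a log scale, with PBS libraries in blue and AFPTK-labelled libraries in orange. Open blue symbols are the near-identical PBS pair. The 13 genes were chosen because edgeR called them on the 6 libraries, a choice that favours separate groups. In each of them the 3 orange symbols lie on 1 side of the 3 blue symbols, above for 5 genes and below for 8. Over the 42 tested genes, AFPTK-labelled values lay above all PBS values for 6 (14.3%, against 21.8% of all tested genes). They lay below them for 17 (40.5%, against 20.1%).

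Heparan sulfate chains are extended by a complex of Ext1 and Ext2. Ext1 (chromosome 7, 84375784 to 84655357, minus strand), a glycosyltransferase subunit of the pair, stood at 92.3, 97.1 and 97.2 CPM in PBS replicates 1, 2 and 3 and 45.6, 33.8 and 38.2 CPM in AFPTK-labelled replicates 1, 2 and 3. The PBS libraries lay close together, and all AFPTK-labelled libraries were below them. Ext1 fell by 1.28 on the log2 scale (SE 0.153, edgeR adjusted p = 0.027 on distinct samples and 0.00344 on the 6 libraries), the smallest adjusted p among the 42 genes. Ext2, its partner, stood at 89.2, 102 and 103 CPM in PBS and 86.8, 65.9 and 80.6 in the AFPTK-labelled libraries. These values were apart by a small gap, and the log2 fold change of -0.31 (SE 0.159) had an edgeR adjusted p of 0.282. Extl3, which adds the first N-acetylglucosamine of a heparan chain, stood at 93.6, 96.2 and 93.9 CPM in PBS and 111, 97.1 and 103 in the AFPTK-labelled libraries. The AFPTK-labelled libraries were slightly above PBS, by 0.13 on the log2 scale (SE 0.112, adjusted p = 0.512), and Ints9 overlaps this locus on the opposite strand. Extl1 and Extl2 overlapped between groups, with estimates of 0.15 (SE 0.401) and -0.16 (SE 0.1899). Of the 5 genes of this group, 1 was called lower by edgeR on distinct samples, by DESeq2 and by limma-voom (20%, against 2.57%, 9.27% and 2.03% of all tested genes).

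Among the enzymes that modify heparan sulfate, Hs3st1 had the highest and Hs2st1 the lowest estimate. Hs3st1, a 3-O-sulfotransferase that makes the antithrombin-binding site, stood at 12.8, 17.2 and 16.97 CPM in PBS replicates 1, 2 and 3 and 49.98, 33.7 and 83.6 CPM in AFPTK-labelled replicates 1, 2 and 3. All AFPTK-labelled libraries were above all PBS libraries, but they spread from 33.7 to 83.6 CPM among themselves. The log2 fold change of 1.89 (SE 0.4296), the highest of the 42, had an edgeR adjusted p of 0.0795 on distinct samples and 0.0194 on the 6 libraries. Hs2st1, which sulfates iduronic acid on carbon 2, stood at 109, 90.5 and 89.3 CPM in PBS replicates 1, 2 and 3 and 62.9, 61.7 and 63.3 CPM in AFPTK-labelled replicates 1, 2 and 3. The AFPTK-labelled libraries were nearly equal. Means were 99.6 ± 13.7 CPM in PBS (SD, n = 2 distinct samples) and 62.6 ± 0.853 in the AFPTK-labelled libraries (SD, n = 3). Its log2 fold change of -0.68 (SE 0.1198) just missed the threshold on distinct samples (edgeR adjusted p = 0.0515) and passed on the 6 libraries (adjusted p = 0.0136).

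The N-deacetylases and N-sulfotransferases Ndst1 and Ndst2, which open the way for later sulfation, had AFPTK-labelled values below PBS in 3 of 3 libraries. Ndst1 stood at 27.3, 25.4 and 28.3 CPM in PBS and 23.5, 20.7 and 16.6 in the AFPTK-labelled libraries (log2 fold change -0.43, SE 0.173, edgeR adjusted p = 0.202). Ndst2 stood at 34.8, 37.1 and 35.9 and 31.5, 28.2 and 30.6 CPM (log2 fold change -0.25, SE 0.107, adjusted p = 0.219), at a locus that Zswim8 overlaps on the opposite strand with more counts. The epimerase Glce and the 6-O-sulfotransferase Hs6st1 overlapped between groups, with estimates of 0.19 (SE 0.238) and 0.24 (SE 0.145). Hs6st2, a second 6-O-sulfotransferase, was not tested, since it had 7, 19 and 19 counts in PBS and 0, 2 and 0 in the AFPTK-labelled libraries. Of the 6 tested genes edgeR called 0 on distinct samples, with 1 higher (Hs3st1) and 1 lower (Hs2st1) at an unadjusted p under 0.05 (16.7% each, against 12.4% and 13.0% of all tested genes). DESeq2 called 1 higher and 1 lower (16.7% each, against 7.29% and 9.27%), and limma-voom 0.

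Chain synthesis draws on activated sulfate and on nucleotide sugars. Ugdh (chromosome 14, 42848854 to 42872354, plus strand), the enzyme that makes UDP-glucuronic acid for chondroitin and heparan chains and for hyaluronan, stood at 135, 160.2 and 161 CPM in PBS replicates 1, 2 and 3 and 88.9, 69.9 and 75.6 CPM in AFPTK-labelled replicates 1, 2 and 3. The PBS libraries were all above the AFPTK-labelled ones, with 135 against 88.9 CPM as the nearest values. Ugdh fell by 0.926 on the log2 scale (SE 0.156, edgeR adjusted p = 0.0477 on distinct samples and 0.00783 on the 6 libraries), lower in 3 of 3 libraries. Slc35d1, which carries UDP-sugars into the endoplasmic reticulum, stood at 48.6, 50.6 and 51.2 CPM in PBS and 43.3, 33.4 and 30.8 in the AFPTK-labelled libraries (log2 fold change -0.48, SE 0.172, edgeR adjusted p = 0.168). Slc26a2, the sulfate transporter whose loss causes chondrodysplasia, stood at 31.5, 48.2 and 50.4 and 30.6, 19.1 and 26.2 CPM (log2 fold change -0.68, SE 0.279, edgeR adjusted p = 0.206). Both transporters had separate groups, but the nearest values of Slc26a2 differed by little. Papss1 and Papss2, which make the sulfate donor, overlapped between groups. Papss2 stood at 214, 339 and 345 CPM in PBS and 279, 169.5 and 258 in the AFPTK-labelled libraries, and Papss1 at 78.6, 122 and 113 and 140.2, 107 and 163. Of the 5 genes of this group, 1 was called lower by edgeR on distinct samples and by DESeq2 (20%, against 2.57% and 9.27% of all tested genes), and 0 by limma-voom.

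Enzymes of neighbouring or alternative steps can be set against each other within a library, which takes out the scaling between libraries. The 8 pairs below were chosen after their values were seen and were not tested, and a ratio of counts also carries the lengths of both transcripts, so only its change between libraries can be read. Csgalnact2 counts divided by Chsy1 counts, initiation over extension of chondroitin, came to 0.764, 0.522 and 0.548 in PBS and 4.58, 4.005 and 6.53 in the AFPTK-labelled libraries. No AFPTK-labelled library came near the PBS range. For 6-O- over 4-O-sulfation, Chst3 over Chst11, the ratio was 0.392, 0.862 and 0.756 in PBS and 1.82, 1.28 and 2.51 in the AFPTK-labelled libraries. It was lowest in PBS replicate 1, and the groups did not overlap. B4galt4 over B4galt1 gave 0.0803, 0.0574 and 0.0589 in PBS and 0.405, 0.329 and 0.426 in the AFPTK-labelled libraries. Ext1 over Ext2, the members of the heparan polymerase, gave 1.03, 0.9497 and 0.942 in PBS and 0.526, 0.514 and 0.473 in the AFPTK-labelled libraries, narrow within each group. The isoenzyme ratios Xylt1 over Xylt2 (4.39, 7.501 and 7.49 in PBS and 16.9, 8.25 and 12.7 in the AFPTK-labelled libraries) and Csgalnact2 over Csgalnact1 (1.198, 1.78 and 1.76 in PBS and 2.15, 3.43 and 4.55 in the AFPTK-labelled libraries) were also higher in every AFPTK-labelled library. Their gaps were small, with 7.501 against 8.25 as the nearest Xylt values. Dse over Dsel was lower, 1.58, 1.299 and 1.35 in PBS and 1.02, 1.15 and 0.968 in the AFPTK-labelled libraries, and Papss1 over Papss2 higher, 0.368, 0.3604 and 0.327 in PBS and 0.502, 0.6299 and 0.632 in the AFPTK-labelled libraries, again without overlap.

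**Figure D3:**
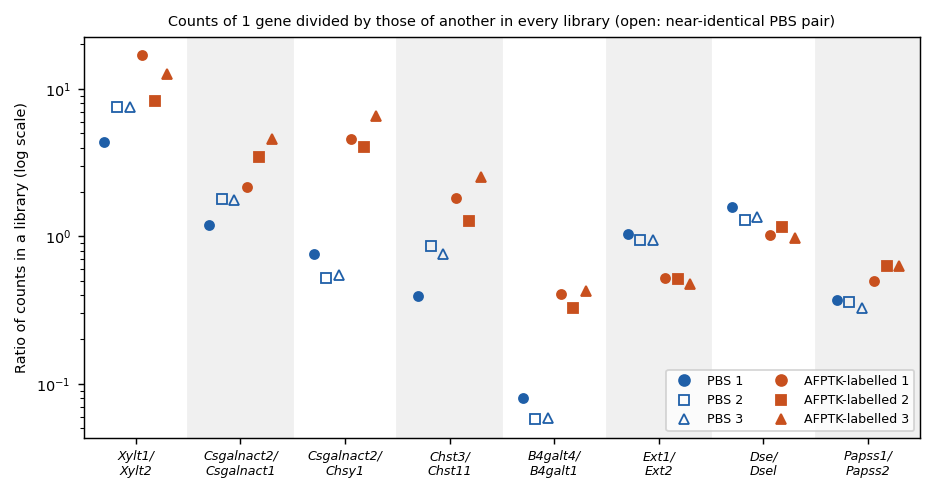
Counts of 1 gene divided by those of another in each library, on a log scale, for 8 pairs, with PBS libraries in blue (open symbols for the near-identical pair) and AFPTK-labelled libraries in orange. In all 8 pairs, which were chosen after their values were seen, the groups do not overlap, and the widest gaps are those of Csgalnact2 over Chsy1 and B4galt4 over B4galt1.

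Of the core proteins that carry these chains, 33 of 36 were tested. On distinct samples 2 rose (6.06%, against 1.13% of all tested genes) and 3 fell (9.09%, against 2.57%). DESeq2 called 3 higher and 6 lower (9.09% and 18.2%, against 7.29% and 9.27%), and limma-voom 2 higher and 3 lower (6.06% and 9.09%, against 0.895% and 2.03%). The median log2 fold change of the list was -0.09. Lum, the keratan sulfate proteoglycan lumican, stood at 2474, 5922 and 5954 CPM in PBS replicates 1, 2 and 3 and 324, 444 and 436 CPM in AFPTK-labelled replicates 1, 2 and 3. Every AFPTK-labelled library was far below PBS (log2 fold change -3.40, SE 0.431, edgeR adjusted p = 0.0303). Cd44, a hyaluronan receptor of which some forms carry chains, fell from 497, 550.4 and 564 to 139, 107 and 127 CPM (log2 fold change -2.09, SE 0.167, edgeR adjusted p = 0.0174). Col18a1, a basement membrane collagen with heparan sulfate, fell from 206, 329 and 332 to 91.1, 77.7 and 94.6 CPM (log2 fold change -1.62, SE 0.233, edgeR adjusted p = 0.0372). In none of these did a PBS value reach into the AFPTK-labelled range. Spock2, a testican with glycosaminoglycan chains, rose from 3.54, 3.41 and 2.69 to 19.4, 16.7 and 17.4 CPM (log2 fold change 2.43, SE 0.175, edgeR adjusted p = 0.0152). Tgfbr3, the proteoglycan receptor betaglycan, rose from 53.9, 44.5 and 41.9 to 123, 119 and 94.4 CPM (log2 fold change 1.20, SE 0.179, edgeR adjusted p = 0.0391). Acan, the main chondroitin sulfate carrier of the disc, was not called. It stood at 2305, 4397 and 4439.6 CPM in PBS and 7450.0, 3225 and 5947 in the AFPTK-labelled libraries, which overlapped.

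Of the genes that break chains down or desulfate them outside the cell, 22 of 25 were tested. On distinct samples 5 fell (22.7%, against 2.57% of all tested genes) and edgeR called 0 higher, with 2 higher and 11 lower at an unadjusted p under 0.05 (9.09% and 50%, against 12.4% and 13.0%). DESeq2 called 8 lower (36.4%, against 9.27%) and limma-voom 4 lower (18.2%, against 2.03%), and both called 0 higher. The AFPTK-labelled values lay below all PBS values for 15 of the 22 (68.2%, against 20.1%), and the median log2 fold change was -0.52, with 0.05 over all tested genes. Among those that fell were the lysosomal enzymes Arsb, which removes 4-O-sulfate, and Gusb, which removes glucuronic acid. Arsb fell from 360.2, 219 and 224 to 89.3, 104 and 69.1 CPM (log2 fold change -1.74, SE 0.273, edgeR adjusted p = 0.0421). Gusb fell from 177, 116 and 117 to 54.7, 69.7 and 55.5 CPM (log2 fold change -1.30, SE 0.218, edgeR adjusted p = 0.0476). In Arsb and Gusb, PBS replicate 1 was the highest library, whereas in Chsy1 it was the lowest of PBS. Cemip, which takes part in hyaluronan breakdown, fell from 89.5, 211 and 215 to 24.2, 24.5 and 18.5 CPM (log2 fold change -2.77, SE 0.387, edgeR adjusted p = 0.0353). Cemip2, a related gene, fell from 81.9, 77.3 and 79.5 to 40.04, 45.01 and 38.8 CPM (log2 fold change -0.97, SE 0.11, edgeR adjusted p = 0.0251).

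Of 24 further chain synthesis genes, which include isoenzymes of rarer use, 14 were tested, and on distinct samples 1 rose and 1 fell (7.14% each, against 1.13% and 2.57% of all tested genes). DESeq2 called 3 higher and 2 lower (21.4% and 14.3%, against 7.29% and 9.27%), and limma-voom 0 higher and 1 lower (7.14%, against 2.03%). Hs6st3, a further 6-O-sulfotransferase of heparan sulfate, had 7, 2 and 3 counts in PBS and 39, 29 and 34 in the AFPTK-labelled libraries. It rose from a level near the floor of 3 counts (log2 fold change 2.97, SE 0.5003, edgeR adjusted p = 0.0476). B4galt5, a galactosyltransferase related to B4galt1, fell from 61.8, 72.6 and 73.8 to 30.2, 25.9 and 34.9 CPM (log2 fold change -1.16, SE 0.164, edgeR adjusted p = 0.0363). Hs6st3 was thus higher where the untested Hs6st2 had fewer counts, both at low depth. Of 20 further genes for donor supply 18 were tested. EdgeR called 0 on distinct samples, with 2 lower at an unadjusted p under 0.05 (11.1%, against 13.0%), DESeq2 called 2 lower (11.1%, against 9.27%) and limma-voom 0.

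Markers of several other cell types differed between the same libraries, and their part in the values above was not tested. The osteoclast list, led by Ctsk, summed to 5379, 3391 and 3402 CPM in PBS and 821, 749 and 482 in the AFPTK-labelled libraries, and 4 of its 6 genes were called lower (66.7%, against 2.57% of all tested genes). The adipocyte list, led by Fabp4, summed to 527, 95.98 and 101 CPM in PBS and 1133, 1851 and 846 in the AFPTK-labelled libraries. All 8 of its genes had AFPTK-labelled values above PBS (against 21.8% of all tested genes), with 0 called by edgeR, 5 at an unadjusted p under 0.05 (62.5%, against 12.4%), 5 called by DESeq2 (against 7.29%) and 0 by limma-voom. The nucleus pulposus and notochord list, led by Cd24, summed to 613, 306 and 299 CPM in PBS and 3462, 1194 and 1452 in the AFPTK-labelled libraries. This sum came almost entirely from Krt8, Krt18 and Cd24. Noto was at or under the floor, and Shh had 0, 2 and 2 counts in PBS and 1, 16 and 31 in the AFPTK-labelled libraries. Of the 4 tested genes of this list edgeR called 0, with 3 at an unadjusted p under 0.05 (75%, against 12.4%), 3 by DESeq2 (against 7.29%) and 0 by limma-voom. The T cell list summed to 10.4, 13.1 and 12.8 CPM in PBS and 3.12, 4.04 and 4.33 in the AFPTK-labelled libraries, with 1 of 4 tested genes, Cd8a, called lower (25%), and in the macrophage list 1 of 8, Cd68, was called lower (12.5%), both against 2.57% of all tested genes. The macrophage genes did not all move alike, since Cd163 had an estimate above 0 (1.15, SE 0.528) and its groups overlapped, as did those of Adgre1, C1qa, C1qb and C1qc. The sums of these lists did not overlap between groups, and the macrophage sums were the closest, with 656 against 634 CPM as the nearest values.

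The skeletal muscle list, led by Acta1, summed to 960.2, 1238 and 1258 CPM in PBS and 958, 9976 and 2637 in the AFPTK-labelled libraries, with AFPTK-labelled replicate 2 far above the rest. The neutrophil list, led by S100a9, summed to 1104, 172 and 163 CPM in PBS and 281, 2820.5 and 3899 in the AFPTK-labelled libraries. It was high in AFPTK-labelled replicates 2 and 3. The smooth muscle list, led by Acta2, summed to 391, 436 and 442 CPM in PBS and 1340.5, 371 and 442 in the AFPTK-labelled libraries, high in AFPTK-labelled replicate 1. Further lists summed to 4565, 1788 and 1783 CPM in PBS and 2165, 3124 and 1803 in the AFPTK-labelled libraries for osteoblasts, 461, 567 and 554 CPM in PBS and 345, 402 and 399.7 in the AFPTK-labelled libraries for endothelium, 38.7, 4.82 and 3.48 CPM in PBS and 20.3, 53.2 and 81.4 in the AFPTK-labelled libraries for B cells and 5.14, 4.57 and 3.97 CPM in PBS and 6.47, 5.91 and 7.07 in the AFPTK-labelled libraries for keratinocytes. The endothelial sums were apart, with PBS higher, and the keratinocyte sums, low throughout, were apart with PBS lower.

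Promoter sequence is shown for 3 of the 4 called genes, B4galt1 and Ugdh, which fell, and B4galt4, which rose, because the calls went both ways. Ext1 has no entry in the promoter table. RefSeq sequence (build GRCr8) of the 250 bases before the start was matched for 35 of the 43 genes. Only bases outside the annotated gene are printed, 5′ to 3′ on the gene's strand. The motifs searched on both strands were the GC box GGGCGG, the letters CCAAT, the core element TATAAA, the E-box CACGTG, the cyclic AMP element TGACGTCA, the AP-1 site TGANTCA and the NF-κB consensus, with capitals marking each match. The B4galt1 stretch is chr5:60778457-60778695 on the minus strand, that of Ugdh chr14:43202268-43202479 on the plus strand and that of B4galt4 chr11:75527292-75527427 on the minus strand.
B4galt1: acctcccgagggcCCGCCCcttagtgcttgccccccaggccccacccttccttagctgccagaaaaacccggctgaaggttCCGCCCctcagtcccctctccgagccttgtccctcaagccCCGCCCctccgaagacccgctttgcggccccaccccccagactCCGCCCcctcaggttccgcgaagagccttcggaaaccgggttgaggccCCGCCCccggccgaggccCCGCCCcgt
Ugdh: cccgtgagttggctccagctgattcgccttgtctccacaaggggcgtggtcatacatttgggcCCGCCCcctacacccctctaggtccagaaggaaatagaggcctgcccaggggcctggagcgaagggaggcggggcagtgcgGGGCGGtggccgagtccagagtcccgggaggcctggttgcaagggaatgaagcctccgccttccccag
B4galt4: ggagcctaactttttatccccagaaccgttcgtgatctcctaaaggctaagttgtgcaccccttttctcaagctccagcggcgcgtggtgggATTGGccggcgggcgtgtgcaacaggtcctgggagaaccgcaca

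The printed B4galt1 stretch of 239 bases held 6 GC boxes and was 71.5% G or C. The Ugdh stretch of 212 bases held 2 GC boxes, and the B4galt4 stretch of 136 bases held 1 CCAAT match. The other 114 of the 250 bases of B4galt4 lie inside the gene and are not printed, and over all 250 bases B4galt4 also had a GC box and an NF-κB match, so the printed stretches do not set it apart from the other 2 genes by GC boxes. Over the full 250 bases, a GC box was present in 23 of the 35 matched genes (65.7%) and in 30.5% of all 33469 promoters in the table, non-coding genes included. The matched genes had a median of 66.4% G or C, against 51.2% over all promoters. CCAAT was present in 10 of 35 (28.6%, against 34% of all), NF-κB in 7 (20% against 6.33%), TATAAA in 2 (5.71% against 12.9%), CACGTG in 2 (5.71% against 5.59%), TGACGTCA in 1 (2.86% against 1.59%) and TGANTCA in 0 (against 6.34%). A match says that the letters are present, and no match only that they are not in this window.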

How the data were processed

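The authors deposited raw counts of reads per Ensembl rat gene. The count columns are named IVD and AFPTK with a number. They were assigned to the PBS and AFPTK-labelled replicates of the same number, an inference from these names. The submitters' processing notes name FastQC, Trimmomatic, HISAT2, featureCounts, DESeq2 and the mouse build mm10, although the rows are rat genes. Versions, the strand setting and the treatment of shared reads are not given in the sources used here. From the deposited counts, edgeR 4.0.16 (R 4.3.3) fitted quasi-likelihood models with TMM scaling, filterByExpr at a minimum count of 10 and Benjamini-Hochberg adjustment over all tested genes, calling genes at an adjusted p under 0.05. PBS replicates 2 and 3 were summed as 1 sample in the fit and averaged in means. DESeq2 1.42.0 and limma 3.58.1 were alternatives. The fits were tested on simulated data. Standard errors were computed as the log2 fold change divided by the square root of its F statistic. Genes were named if called on distinct samples or on the 6 libraries, or if among the 3 largest changes, and other pathway genes if called, up to 6 a list. A further rule, the highest level per length in each role group, was not applied, as no transcript lengths were used. Members and lists were chosen with earlier results of these data known. Chst6, Slc35a3 and some marker names were not used here. Some genes of the lists, and 1 marker list, are not reported here. The methods give each replicate its own animal, although PBS replicates 2 and 3 differed by little more than counting noise. Floors cover counting error only.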

Additional observations from a re-analysis of the deposited data

How the results depend on the processing

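Counts over all genes stand in parentheses. With 1 gene higher and 3 lower on distinct samples (175 and 400 of 15537), the counts became 5 higher and 8 lower with the 6 libraries counted separately (1233 and 1494 of 15042), and 5 and 8 with DESeq2 (1132 and 1440). Limma-voom called 0 higher and 2 lower (139 and 315). At an unadjusted p under 0.05 limma-voom had 5 higher and 13 lower (3982, both directions together). An adjusted p under 0.1 gave 3 and 7 (687 and 1000), and no filter gave 1 and 5 (189 and 510 of 22112). RLE and total-count scaling each gave 1 and 4 (165 and 443 with RLE, 152 and 388 with total counts), a minimum of 50 counts and a robust fit each gave 1 and 3 (211 and 411 of 12918, and 163 and 383), and a log2 fold change beyond 1 gave 1 and 2 (138 and 314). Leaving out each library in turn gave 0 to 1 higher and 0 to 3 lower (0 to 170 and 0 to 396). The 0 and 0 came without AFPTK-labelled replicate 2 or 3. There edgeR had 5 and 5 higher and 8 and 7 lower at an unadjusted p under 0.05 (3109 of 15208 and 2699 of 15228, both directions together). Without PBS replicate 1, the lone PBS sample was assumed to vary like the other group. The median log2 fold change of the genes stayed between -0.43 and -0.22 over 15 fits, and none of 13 named genes changed direction in them. The adjusted p ranged from 1.19e-06 to 0.162 for B4galt1, 5.28e-05 to 0.173 for B4galt4, 6.9e-09 to 0.15 for Ext1 and 4.78e-05 to 0.186 for Ugdh. Their log2 fold changes moved less, from -1.65 to -1.32 for B4galt1 and 1.06 to 1.26 for B4galt4. For Ext1 they ran from -1.44 to -1.18 and for Ugdh from -1.06 to -0.847.

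With the replicate number as a block, 1 gene was higher and 2 were lower (307 and 434 of 15042). Deviations of libraries with the same number correlated at -0.339, -0.310 and -0.0823, so the samples share only a number.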
